A study of Homo sapiens with 4 samples.

Results

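The genes followed were 10 genes of the MAGE family: MAGEA1, MAGEA3, MAGEA4, MAGEA6, MAGEA10, MAGEA12, MAGEB1, MAGEB2, MAGEC1 and MAGEC2. They are among 43296 gene names in the deposited gene table and were taken by exact name. Counts came from single-cell RNA sequencing with 5′ chemistry from 10x Genomics, which reads a transcript from its 5′ end, of H1299 and HCT116 cells. H1299 is a line from a human non-small cell lung carcinoma and HCT116 one from a human colorectal carcinoma. Both lines were at passage 5 to 10 and received fresh medium every 24 h. The control groups (labelled DMSO) received the solvent. The treated groups (labelled DAC+SB) received decitabine (DAC), an inhibitor of DNA methyltransferases, at 500 nM for 72 h and SB939, an inhibitor of histone deacetylases, at 500 nM for 18 h. Each group was 1 library, and no group received 1 compound alone. A difference between libraries therefore has no replicate check, no test was made, and the effects of the 2 compounds cannot be told apart.

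MAGE genes (melanoma antigen genes) of the A, B and C subfamilies lie on the X chromosome and are known as cancer-testis genes. They are transcribed in germ cells, are silent in most other adult tissues, where their promoters carry DNA methylation, and are switched on in many tumours, whose cells then present MAGE peptides on HLA molecules to T cells. MAGE proteins share a conserved domain through which many of them bind RING ubiquitin ligases and steer these to particular substrates. In the GENCODE 29 annotation on GRCh38, the 6 MAGE-A members lay on chromosome X between 151912509, the start of MAGEA4, and 153183880, the end of MAGEA1. MAGEB2 and MAGEB1 lay on the other arm between 30215560 and 30252038, and MAGEC1 and MAGEC2 between 141903894 and 142205290. All 10 are annotated as protein-coding.

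The sequences just before the start sites are shown because the counts were read from 5′ ends and because methylation of this DNA is known to silence MAGE genes. Methylation itself was not measured here. A promoter table from RefSeq on GRCh38.p14 held 14 windows for 8 members, namely MAGEA3, MAGEA4, MAGEA6, MAGEA12, MAGEB1, MAGEB2, MAGEC1 and MAGEC2; MAGEA1 and MAGEA10 were not matched. The lines below give 100 bases before to 20 bases after an annotated start, 5′ to 3′ on the strand of the gene. Capitals mark GGATGTG, a run noticed on reading these windows, and where a gene had several starts the start nearest to that run was chosen. The MAGEA6 window, on the minus strand at chrX:152769670-152769789, had the same letters as that of MAGEA3 over all 270 bases searched, so it is not repeated.
MAGEA3, chrX:152698694-152698813, plus strand: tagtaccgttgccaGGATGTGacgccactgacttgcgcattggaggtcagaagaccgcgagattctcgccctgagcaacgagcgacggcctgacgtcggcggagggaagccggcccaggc
MAGEA4, chrX:151912374-151912493, plus strand: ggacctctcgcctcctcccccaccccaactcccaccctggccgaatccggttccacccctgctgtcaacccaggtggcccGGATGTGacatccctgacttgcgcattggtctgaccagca
MAGEA12, chrX:152733657-152733776, plus strand: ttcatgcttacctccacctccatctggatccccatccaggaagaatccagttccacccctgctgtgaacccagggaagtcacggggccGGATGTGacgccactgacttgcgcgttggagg
MAGEB1, chrX:30247046-30247165, plus strand: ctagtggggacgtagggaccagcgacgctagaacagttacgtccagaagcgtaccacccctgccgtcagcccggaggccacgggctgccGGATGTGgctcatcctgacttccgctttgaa
MAGEB2, chrX:30215463-30215582, plus strand: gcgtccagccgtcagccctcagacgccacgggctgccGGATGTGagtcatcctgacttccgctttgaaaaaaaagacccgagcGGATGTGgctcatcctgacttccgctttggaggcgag
MAGEC1, chrX:141903794-141903913, plus strand: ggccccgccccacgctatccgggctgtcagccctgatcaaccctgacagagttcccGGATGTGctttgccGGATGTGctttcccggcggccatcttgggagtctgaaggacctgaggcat
MAGEC2, chrX:142205271-142205390, minus strand: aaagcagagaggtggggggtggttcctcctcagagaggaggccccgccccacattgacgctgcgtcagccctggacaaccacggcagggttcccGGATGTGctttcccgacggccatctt

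GGATGTG, or CACATCC on the other strand, stood in 13 of the 14 member windows of 270 bases, and in 3.84% of the 35116 windows of all genes. All 8 members with a window had it in at least 1 window. Since the run was picked from these windows, which include 5 of MAGEA4 and the identical ones of MAGEA3 and MAGEA6, these shares are a description. The longer CCGGATGTG, which contains a CG, stood in 11 of the 14 windows, from MAGEA4, MAGEA12, MAGEB1, MAGEB2, MAGEC1 and MAGEC2, and in 0.325% of all windows. In the MAGEA3 and MAGEA6 windows the bases before GGATGTG were CA instead of CC. As background, CCGGAT has the GGA core to which ETS transcription factors bind. GGATGTG holds that core as well, also in the MAGEA3 and MAGEA6 windows. The windows printed held between 7 and 17 CG pairs over 270 bases, against a median of 12 over all windows. The member window without GGATGTG, at another start of MAGEB1, is not printed and held 1 CG pair. A match describes the letters and does not show that a factor binds.

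The libraries held 3578 cells of control H1299, 3726 of treated H1299, 3658 of control HCT116 and 4327 of treated HCT116. Summed gene and transposable element (TE) counts were 64524196, 62428673, 62639099 and 38927267 in that order, so treated HCT116 was the shallowest. The median count per cell ranged from 8449 in that library to 17369.5 in control H1299, and the median mitochondrial share from 8.33% in control H1299 to 18.6% in treated HCT116. Between 18 and 30 cell barcodes were shared by each pair of libraries. Levels below are CPM, gene counts scaled to 1000000 gene and TE counts of the library. Their 95% intervals, like those of shares and ratios, cover counting error only. The 10 H1299 markers summed to 2769 and 1543 CPM in control and treated H1299 and to 272 and 419 CPM in HCT116. The 10 HCT116 markers summed to 177 and 99.9 CPM in control and treated HCT116, and to 0.496 and 19.3 CPM in H1299. KRT20 was at 0 in both H1299 libraries, and CDX1 and CDH1 in the control one. ZEB2, CDH2 and CDX1 were at 0 in control HCT116. In each treatment the summed markers of a line were higher in that line. VIM gave 2282 of the 2769 CPM in control H1299, and not every marker followed its list: COL6A1, an H1299 marker, was at 16.7 CPM in control H1299 and 27.9 CPM in control HCT116, and ESRP1, an HCT116 marker, at 2.92 CPM in treated H1299 and 2.41 CPM in treated HCT116.

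The treated library held more MAGE counts than its control in both lines, and the members that were nearly silent with DMSO were those with the large ratios. The 10 members summed to 17271 counts (267.7 CPM) in control H1299, 22806 counts (365.3 CPM) in treated H1299, 6115 counts (97.6 CPM) in control HCT116 and 7722 counts (198.4 CPM) in treated HCT116. The sum was thus 1.36-fold (1.34 to 1.39) higher with DAC+SB in H1299 and 2.03-fold (1.96 to 2.10) higher in HCT116. One gene carried much of each sum, MAGEA4 in H1299 and MAGEB2 in HCT116. MAGEA4 gave 52.1% of the summed counts in control H1299 and 42.5% in treated H1299. MAGEB2 gave 65.6% in control HCT116 and 35.6% in treated HCT116. These are shares of counts, and counts were not divided by transcript length because the reads come from 1 end. Without MAGEB2 the log2 ratio of the sum was 0.14 in H1299 and 1.93 in HCT116, against 0.45 and 1.02 with it.

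**Figure D1:**
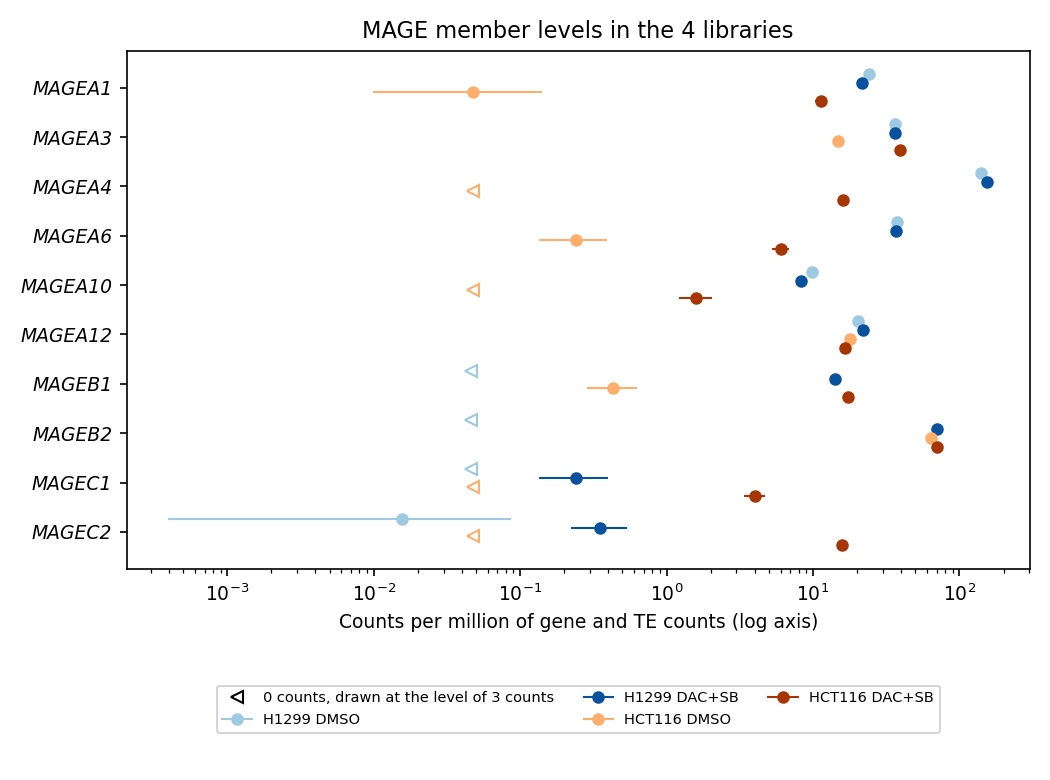
Level of each MAGE member in each library, in CPM on a log axis, with 95% Poisson intervals. Open triangles stand for 0 counts and are drawn at the level of 3 counts. In H1299 the 6 MAGE-A members have nearly the same level with and without treatment, and MAGEB1 and MAGEB2 appear only with DAC+SB. In control HCT116 only MAGEA3, MAGEA12 and MAGEB2 lie above 1 CPM.

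All 6 MAGE-A members were on in untreated H1299 cells, and 4 of them, MAGEA1, MAGEA4, MAGEA6 and MAGEA10, had at most 15 counts in untreated HCT116 cells. MAGEA4, whose product is a target of engineered T cell therapies, had 8997 counts (139 CPM) in control H1299, 9698 counts (155 CPM) in treated H1299, 0 counts in control HCT116 and 624 counts (16.0 CPM) in treated HCT116. Its log2 ratio was 0.16 (0.11 to 0.20) in H1299, and it was at least 335-fold higher with DAC+SB in HCT116. A ratio against a library at 0 is a lower bound with 3 counts set there, and it holds only if no feature that the table leaves out had counts in that library. The treated HCT116 level of MAGEA4 stayed 9.69-fold below the treated H1299 level. GENCODE places an antisense gene, MAGEA4-AS1, over MAGEA4, and whether the counting used strand was not given in the sources used here.

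MAGEA1, the first human tumour antigen found to be recognised by T cells, had 1565 counts (24.3 CPM) in control H1299, 1350 (21.6 CPM) in treated H1299, 3 (0.0479 CPM) in control HCT116 and 441 (11.3 CPM) in treated HCT116. It was slightly lower with DAC+SB in H1299, at a log2 ratio of -0.17 (-0.27 to -0.06), and higher in HCT116 at a log2 ratio of 7.89 (6.33 to 10.17, from 3 counts). Without its numbered feature, which control HCT116 does not list, the MAGEA1 ratio in HCT116 was 6.66. MAGEA10, another antigen seen by T cells, followed the same order at lower levels. It had 631 counts in control H1299, 521 in treated H1299, 0 in control HCT116 and 62 in treated HCT116, so that the H1299 log2 ratio was -0.23 (-0.40 to -0.06) and the HCT116 one at least 5.06. A joined feature, MAGEA10 with RP11-1007I13.4, whose counts cannot be assigned to either gene, had 435, 391, 0 and 113 counts in the same order. With it, the MAGEA10 ratios were -0.18 and at least 6.55.

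MAGEA3 and MAGEA6 encode close relatives known to bind the ubiquitin ligase TRIM28. The first-numbered GENCODE transcripts of the 2 genes differed at 24 of 1724 aligned bases (98.6% identical), so the split of reads between them is uncertain. MAGEA3 had 2361 counts (36.6 CPM) in control H1299, 2252 (36.1 CPM) in treated H1299, 928 (14.8 CPM) in control HCT116 and 1519 (39.0 CPM) in treated HCT116. MAGEA6 had 2410 (37.4 CPM), 2301 (36.9 CPM), 15 (0.239 CPM) and 235 (6.04 CPM) in the same order. The 2 genes were level with each other in H1299 and far apart in HCT116. In H1299 both had a log2 ratio of -0.02. In HCT116 the ratio was 1.40 (1.28 to 1.52), or 2.63-fold, for MAGEA3 and 4.66 (3.90 to 5.52), or 25.2-fold, for MAGEA6. Summed as 1 gene they were 2.99-fold higher (2.76 to 3.24) with DAC+SB in HCT116, which is under 4-fold. A numbered feature of MAGEA6 was listed in H1299, with 1015 and 1059 counts, and not in HCT116.

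MAGEA12, the third close relative, with 92.2% of aligned bases the same as in MAGEA3, was on in all 4 libraries. It had 1306 counts (20.2 CPM) in control H1299, 1371 (22.0 CPM) in treated H1299, 1129 (18.0 CPM) in control HCT116 and 640 (16.4 CPM) in treated HCT116. The log2 ratio was 0.12 (0.01 to 0.23) in H1299 and -0.13 (-0.27 to 0.01) in HCT116. A feature that joins it with the overlapping pseudogene CSAG4 had 1490, 1983, 296 and 252 counts, and its log2 ratio was 0.46 in H1299 and 0.45 in HCT116. Taken with that feature, MAGEA12 had ratios of 0.31 and 0.01, so the sign in HCT116 depends on how the joined counts are used. Between the lines it was 1.12-fold higher in H1299 with DMSO and 1.34-fold higher with DAC+SB, and 1.90-fold and 2.34-fold higher with the joined counts.

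With DMSO, MAGEB1 and MAGEB2 had counts in HCT116 and none in H1299. MAGEB2, which in germ cells is known to dampen stress granule assembly, had 0 counts in control H1299, 4397 (70.4 CPM) in treated H1299, 4013 (64.1 CPM) in control HCT116 and 2750 (70.6 CPM) in treated HCT116. It was at least 1515-fold higher with DAC+SB in H1299, and its log2 ratio in HCT116 was 0.14 (0.07 to 0.21). The treated lines had nearly the same level, with a ratio of 0.997 (0.95 to 1.05) for H1299 over HCT116. MAGEB1, its neighbour with 77.3% of aligned bases the same, had 0 counts in control H1299, 879 (14.1 CPM) in treated H1299, 27 (0.431 CPM) in control HCT116 and 678 (17.4 CPM) in treated HCT116. Both lines had low MAGEB1 with DMSO and similar levels with DAC+SB. It was at least 303-fold higher with DAC+SB in H1299 and 40.4-fold (27.5 to 61.8) higher in HCT116. With numbered features used only where both libraries of a line list them, the log2 ratio of MAGEB1 in HCT116 was 4.50 instead of 5.34, and the bound of MAGEB2 in H1299 was 9.92 instead of 10.57. GENCODE has MAGEB4 overlapping MAGEB1 on the same strand, and MAGEB4 itself had at most 5 counts in a library. In treated H1299, where MAGEB2 matched its HCT116 level, the HCT116 markers summed to 19.3 CPM. They summed to 0.496 CPM in control H1299 and 99.9 CPM in treated HCT116. MAGEC2 was at 0.352 CPM in treated H1299 and 15.9 CPM in treated HCT116. No cause of the MAGEB2 level was tested.

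The MAGE-C genes were at or near 0 in both control libraries and reached 100 counts only in treated HCT116 cells. MAGEC2, whose product binds TRIM28, had 1 count in control H1299, 22 (0.352 CPM) in treated H1299, 0 in control HCT116 and 617 (15.9 CPM) in treated HCT116. It was at least 331-fold higher in HCT116 with DAC+SB, a log2 bound of 8.37 that was 7.38 without its numbered feature. In H1299 the ratio was 22.7 (3.68 to 938), a log2 ratio of 4.51 that rests on 1 count with DMSO and was 5.24 as a mean over cells. MAGEC1, which carries a long repeat region ahead of the shared domain, had 0 counts in control H1299, 15 in treated H1299, 0 in control HCT116 and 156 (4.01 CPM) in treated HCT116. It was at least 83.7-fold higher with DAC+SB in HCT116 and at least 5.17-fold higher in H1299. With DAC+SB, MAGEC1 in H1299 was at 0.0600 and MAGEC2 at 0.0222 of the HCT116 level.

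A gene was counted as higher or lower where its levels differed at least 4-fold and the higher library held at least 100 counts. In H1299, 8 of the 10 members reached 100 counts, and 2 of these, MAGEB1 and MAGEB2, were higher with DAC+SB, against 11.0% of 14610 genes with enough counts. No member was lower, against 0.349% of genes. MAGEC1 and MAGEC2 were past 4-fold on fewer counts. In HCT116, 9 members reached 100 counts, and 6 of these were higher (MAGEA1, MAGEA4, MAGEA6, MAGEB1, MAGEC1 and MAGEC2), against 9.63% of 13539 genes. None was lower, against 3.69%, and MAGEA10 was past 4-fold on 62 counts, or on 175 with its joined feature. MAGEA6 summed with the near-identical MAGEA3 was 2.99-fold higher, which is under 4-fold. MAGEB1 was thus the member counted as higher in both lines, and the share of all genes so counted in both was not computed. MAGEC1 and MAGEC2 were also past 4-fold in both lines, on 15 and 22 counts in treated H1299. Genes that reach 100 counts only in the treated library have to be higher there, which holds for MAGEB1 and MAGEB2 in H1299 and for all 6 called members in HCT116. The median log2 ratio was 0.05 over the 8 members in H1299 and 5.34 over the 9 in HCT116, with bounds taken at their value, beside medians of -0.07 and -0.23 over all genes with enough counts. The HCT116 median is the ratio of MAGEB1, 1 of those 6 members. The count minimum thus set its sign, and the median over all genes is no yardstick for it.

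**Figure D2:**
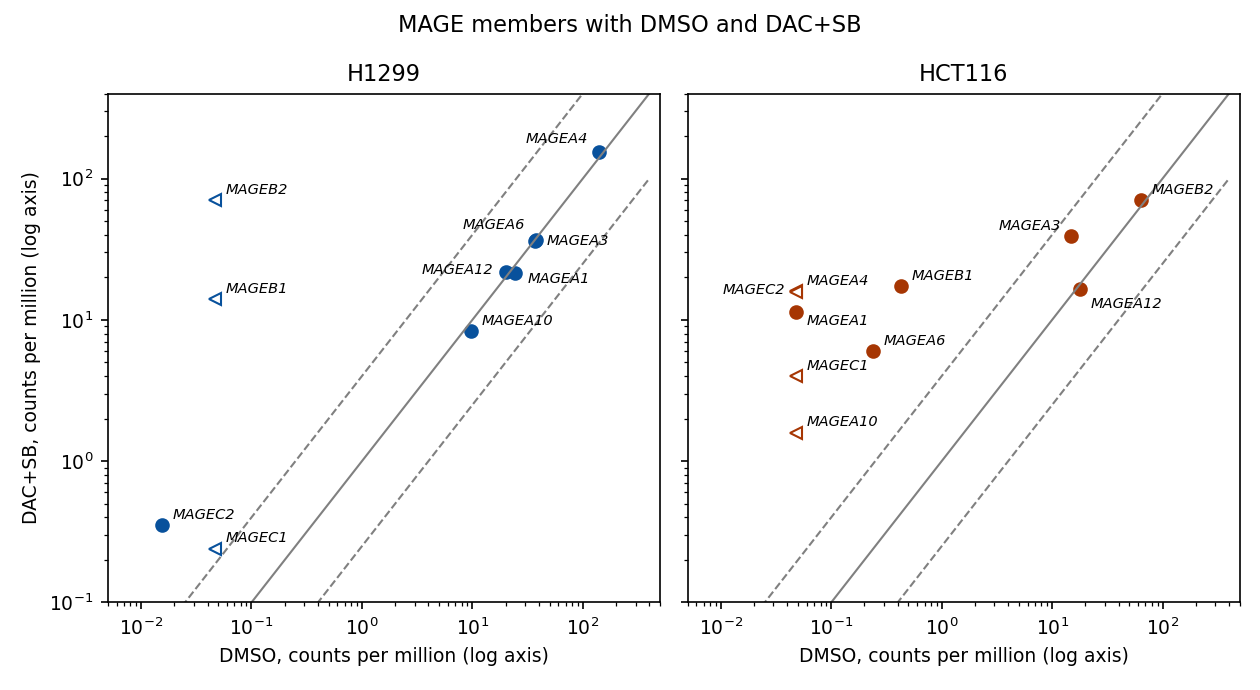
Level of each member with DMSO (x axis) and with DAC+SB (y axis), in CPM on log axes, for H1299 on the left and HCT116 on the right. The solid line marks equal levels and the dashed lines a 4-fold difference. Open triangles had 0 counts with DMSO and are drawn at the level of 3 counts. Members above 9 CPM with DMSO lie within the dashed lines in both lines, and those below 1 CPM lie above them.

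Apart from MAGEA3 in HCT116, members that were on with DMSO had folds near 1. In H1299 the 6 MAGE-A members, between 9.78 and 139 CPM with DMSO, had log2 ratios between -0.23 and 0.16. In HCT116 MAGEA12 and MAGEB2, at 18.0 and 64.1 CPM with DMSO, had ratios of -0.13 and 0.14, and MAGEA3, at 14.8 CPM, had the intermediate ratio of 1.40. A ratio and its own denominator are not independent measures, so this is given as a description. The log2 ratio of MAGEA6 in H1299 minus that in HCT116 was -4.68 (-5.43 to -3.92). For MAGEA3 the same difference was -1.42 (-1.56 to -1.27), and for MAGEA12 it was 0.25 (0.07 to 0.43). The split of reads between MAGEA3 and MAGEA6 is uncertain. Summed as 1 gene they had log2 ratios of -0.02 in H1299 and 1.58 in HCT116. With 1 library per group none of these differences was tested.

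The members that set the lines apart were partly different ones with DMSO and with DAC+SB. With DMSO, 7 members reached 100 counts in a line. Of these, 4 were at least 4-fold higher in H1299 (MAGEA1, MAGEA4, MAGEA6 and MAGEA10), against 9.92% of 13796 genes, and 1, MAGEB2, was lower, against 8.11%. All 5 reached 100 counts only in the line where they were high, so that each could pass in that direction alone and the shares over all genes are no yardstick for them. With DAC+SB all 10 reached 100 counts in a line. Then 3 were higher in H1299 (MAGEA4, MAGEA6 and MAGEA10), against 8.97% of 14875 genes, and 2 were lower (MAGEC1 and MAGEC2), against 4.65%. Of the 3, MAGEA10 was 3.25-fold (2.76 to 3.84) higher once its joined feature was added, and MAGEA3 and MAGEA6 summed as 1 gene were 1.62-fold (1.53 to 1.71) higher, both under 4-fold. In treated H1299 MAGEA6 had 1242 unnumbered and 1059 numbered counts. Treated HCT116 had 235 unnumbered counts and listed no numbered feature of MAGEA6, so this ratio rests in part on that feature. MAGEA10, MAGEC1 and MAGEC2 likewise reached 100 counts only in the line where they were high. MAGEA1 was 506-fold (173 to 2458, from 3 counts) higher in H1299 with DMSO and 1.91-fold (1.71 to 2.13) higher with DAC+SB. MAGEA3 was 2.47-fold higher in H1299 with DMSO and at 0.924 (0.866 to 0.987) of the HCT116 level with DAC+SB. MAGEB1 in treated H1299 was at 0.808 (0.731 to 0.895) of its HCT116 level.

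The gene table splits some members into a feature named by the gene alone and a numbered feature, listed from 10 counts upward, whose meaning was not given in the sources used here. MAGEA4, MAGEA10 and MAGEA12 had no numbered feature of their own. The balance of the pair moved with treatment in some members. The counts of features given here are not scaled to depth. Treated HCT116 held 38927267 gene and TE counts against 62639099 in its control, so equal counts are a higher level with DAC+SB. For MAGEB2 in HCT116, the unnumbered feature had 2270 counts with DMSO and 1022 with DAC+SB, while the numbered feature had 1743 and 1728. For MAGEA3 in HCT116 the unnumbered feature had 400 and 405 counts and the numbered feature 528 and 1114. In H1299 the MAGEA3 pair stayed close, with 1209 and 1068 unnumbered and 1152 and 1184 numbered counts. In treated H1299 MAGEB2 had 2819 unnumbered and 1578 numbered counts. The numbered MAGEC2 feature held 307 of its counts in treated HCT116, beside 310 unnumbered, and that of MAGEC1 held 35 beside 121.

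Cells were compared after each was thinned at random to 3300 counts, which left out 402 treated HCT116 cells and none of the other libraries. At that depth 56.7% of control H1299 cells (55.1 to 58.4), 66.9% of treated H1299 cells (65.4 to 68.4), 27.0% of control HCT116 cells (25.5 to 28.5) and 43.5% of treated HCT116 cells (42.0 to 45.1) had a count of at least 1 member. Intervals are exact Clopper-Pearson intervals. For a share of 0 the limit given is that of 3 cells, and it bounds cells with a count at this depth, not cells expressing the gene. Without thinning the shares were 95%, 96.7%, 70.4% and 67.9%, so the order of the HCT116 libraries turned, and the median depth of these libraries was 16257.5 and 8449 counts. MAGEA4 was found in 35.9% and 39.2% of thinned H1299 cells, in 0 of 3658 control HCT116 cells, which allows a share of up to 0.0820%, and in 5.22% of treated HCT116 cells. MAGEB2 was found in 0 of 3578 control H1299 cells, which allows up to 0.0838%, and in 19.9%, 18.7% and 19.1% of the other libraries. The MAGEB2 share was thus nearly equal in treated H1299 and in both HCT116 libraries. MAGEB1 was found in 4.83% of treated H1299 and 5.45% of treated HCT116 cells, and MAGEC2 in 0.0537% and 4.51%. All cells belong to the 2 lines, so no cell type that should lack these genes gives a level of free RNA; in the control libraries the lowest shares were 0.

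**Figure D3:**
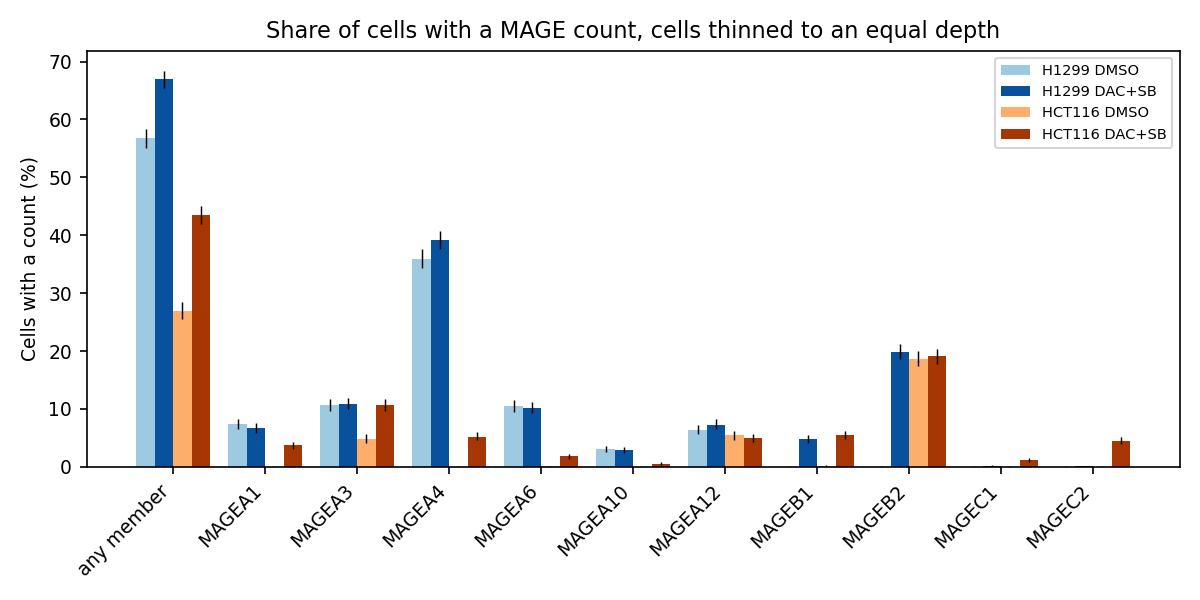
Share of cells with a count of any MAGE member and of each member, in percent, after thinning to 3300 counts per cell, with exact 95% binomial intervals. The H1299 bars for MAGEA4 reach 35.9% and 39.2%, and the MAGEB2 bars of treated H1299 and both HCT116 libraries lie between 18.7% and 19.9%.

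Within a positive cell most members were found as a single count. Without thinning, MAGEA4 had a mean of 2.98 counts per positive cell in control H1299 and 3.07 in treated H1299, with up to 27 and 28 counts in a cell. MAGEB2 had a mean of 2.09 per positive cell in treated H1299, with up to 22, and of 1.92 and 1.59 in control and treated HCT116. The tenth of treated H1299 cells with most MAGEA4 held 28.3% of its counts, and the tenth with most MAGEB2 held 40.2% of its counts. Counts of MAGEA4 were thus found in most H1299 cells: 84.5% of DMSO and 84.7% of DAC+SB cells had a count without thinning. Of these positive cells, 24.6% with DMSO and 25.6% with DAC+SB held 1 count. In treated HCT116, 80.6% of the MAGEC2-positive cells and 75.9% of the MAGEA4-positive cells had 1 count.

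Cells with several members were more common in the treated libraries. After thinning, the mean number of members with a count was 0.739 and 1.02 per cell in control and treated H1299, and 0.291 and 0.571 in control and treated HCT116. At least 2 members were found in 14.7% and 27.2% of H1299 cells and in 2.10% and 11.2% of HCT116 cells, control first. More members being above 0 in a library raises this share by itself. Cells positive for both genes of a pair were therefore set against the number given by the product of the 2 single shares. Over 28 pairs in each treated library the median of that ratio was 1.15 in H1299 and 1.16 in HCT116. Single pairs ran from 0.580 to 1.54 in treated H1299 and from 0.575 to 1.97 in treated HCT116. Over 15 pairs in control H1299 the median was 1.01, with single pairs from 0.630 to 1.48. A pair was used where each gene had a count in at least 50 thinned cells of the library. Control HCT116 had only 3 such pairs, with a median of 1.02 and single pairs from 0.866 to 1.45. Pairs share genes and cells, and few cells held both, so these ratios are a description.

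**Figure D4:**
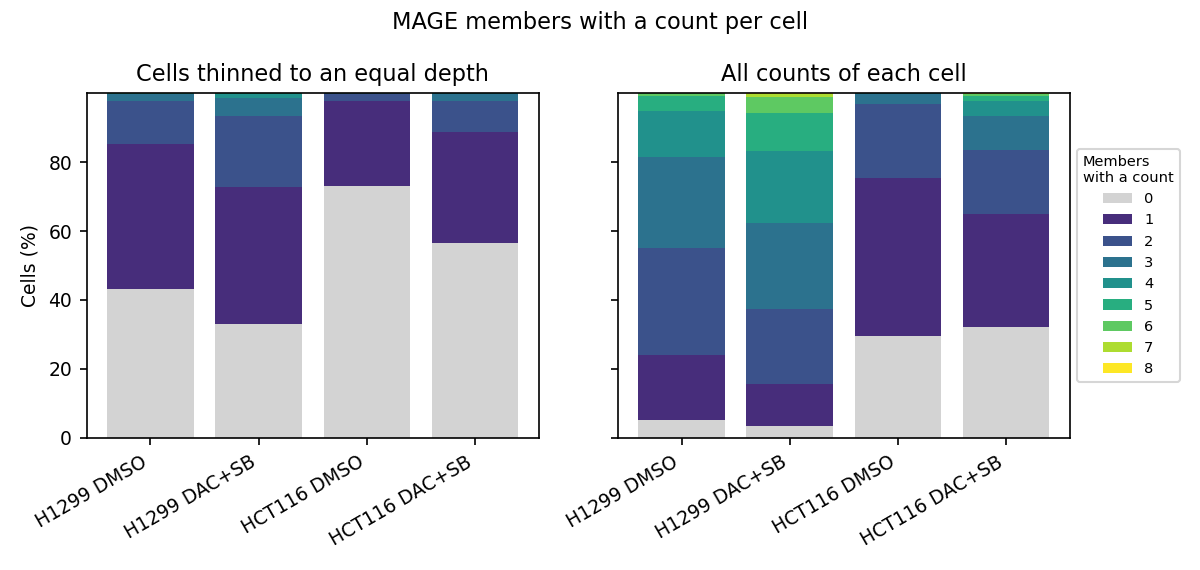
Share of cells, in percent, by the number of MAGE members with a count, from 0 (grey) to 8, in each library, after thinning to 3300 counts on the left and with all counts on the right. After thinning, cells with no member make up 73.0% of control and 56.5% of treated HCT116, and 43.3% of control and 33.1% of treated H1299.

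TE transcripts are another readout of silenced DNA, and MAGE levels were set beside the share of TE counts per cell. TE counts made up 0.199% and 3.09% of counts in control and treated H1299, and 0.319% and 5.56% in HCT116. Cells of each library were divided into 4 groups of equal size by TE share, and levels were scaled to 1000000 gene counts. In treated H1299 the summed members stood at 365, 382, 388 and 373 from the lowest to the highest group, and in treated HCT116 at 216, 224, 203 and 192. The highest and lowest groups had overlapping intervals in H1299, and the highest group stood lower in HCT116. The third group of treated H1299, at 388 (378 to 398), lay above the lowest, at 365 (355 to 374). MAGEB2 was higher in the highest group of 1 line and lower in that of the other. It stood at 63.3 (59.5 to 67.4) in the lowest and 77.0 (72.6 to 81.6) in the highest group of treated H1299, and at 89.0 (83.5 to 94.8) and 63.1 (57.7 to 68.9) in treated HCT116. MAGEA12 in treated HCT116 stood at 20.9 (18.3 to 23.8) in the lowest and 13.7 (11.2 to 16.6) in the highest group. The intervals of the lowest and highest groups overlapped for MAGEA12 in treated H1299 and for the other members in both treated libraries. Among these, MAGEA4 in treated H1299 lay between 152 and 166 over the groups, and MAGEC2 in treated HCT116 between 16.0 and 17.6. Middle groups could differ from the lowest: MAGEA1 in treated HCT116 stood at 9.87 (8.09 to 11.9) in the lowest and 14.4 (12.1 to 17.0) in the second group. From the lowest to the highest group of treated HCT116, the median depth went from 9986.5 to 7414 counts and the median mitochondrial share from 15.8% to 20.9%; their part in the result was not tested.

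**Figure D5:**
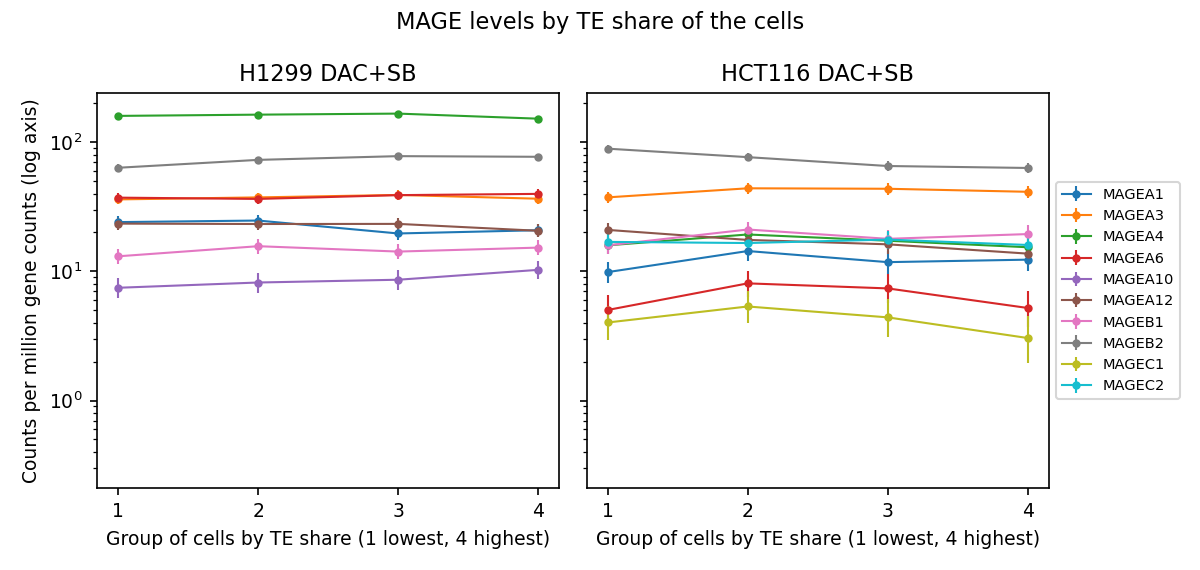
Level of each member with at least 100 counts, in counts per 1000000 gene counts on a log axis, in 4 groups of cells by TE share in the 2 treated libraries, with 95% Poisson intervals. MAGEB2 goes from 89.0 to 63.1 across the groups in treated HCT116 and from 63.3 to 77.0 in treated H1299.

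Of 16 further genes of the A, B and C subfamilies, 14 were in the table. In H1299, 4 of them reached 100 counts (MAGEB3, MAGEB6, MAGEB10 and MAGEB17) and all 4 were at least 4-fold higher with DAC+SB, against 11.0% of all genes with enough counts, each from 5 or fewer counts with DMSO, so that they could pass only by being higher. MAGEB6 had 0 and 190 counts there, and MAGEB10 had 0 and 177. In HCT116, 7 reached 100 counts, and MAGEA11, MAGEB6, MAGEB10 and MAGEB17 were higher, against 9.63% of genes. These 4 also reached 100 counts only in the treated library, with MAGEA11 going from 6 to 310 counts and MAGEB6 from 1 to 455. MAGEA2 had a log2 ratio of 1.01 (0.73 to 1.29). MAGEA9 and MAGEA9B, near-identical copies whose reads may be split between them, were lower with DAC+SB in HCT116, at -1.51 (-2.08 to -0.97) and -1.39 (-1.58 to -1.20), from 160 and 1202 counts with DMSO.

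Type II MAGE genes, which include the D, E, F, H and L subfamilies, necdin (NDN) and NSMCE3, are expressed in many normal tissues and are not cancer-testis genes. Of the 11 listed, 5 reached 100 counts in each line. None was at least 4-fold higher or lower in H1299, against 11.0% and 0.349% of all genes, so that a count of 0 among so few says little, and 1, MAGEH1, was higher in HCT116, from 0 to 297 counts or at least 159-fold. Over all genes with enough counts 9.63% were higher in HCT116, and MAGEH1, which reached 100 counts there only with DAC+SB, could pass only by being higher. MAGED1, also known as NRAGE, was at 0.50 (0.40 to 0.61) on the log2 scale for H1299, whereas its HCT116 value was -0.61 (-0.73 to -0.48). MAGED2 had -0.03 and -0.72, and MAGEF1 had 0.38 in both lines. NSMCE3, a subunit of the SMC5/6 complex, had 0.48 and 0.87. The medians over the genes with enough counts were 0.48 and 0.38.

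CSAG genes lie among the MAGE-A genes. CSAG1 had 9749 counts in control H1299, 9411 in treated H1299, 5342 in control HCT116 and 4011 in treated HCT116, with log2 ratios of 0.00 and 0.27. CSAG2 had 168, 117, 96 and 45 counts, and its H1299 log2 ratio was -0.47 (-0.83 to -0.13). The median over both genes in H1299 was -0.24. Of 13 genes listed as partners, regulators or substrates of MAGE genes and proteins, 11 reached 100 counts in H1299, and none was at least 4-fold higher or lower, against 11.0% and 0.349% of all genes. In HCT116, 10 did, of which CTCFL was higher, against 9.63% of all genes, and UHRF1 was lower, against 3.69%. CTCFL reached 100 counts in HCT116 only with DAC+SB and could pass only by being higher. CTCFL, a testis relative of CTCF that is itself a cancer-testis gene, had 1000 counts in control H1299, 2076 in treated H1299, 8 in control HCT116 and 491 in treated HCT116. Its log2 ratios were 1.10 (0.99 to 1.21) and 6.63 (5.64 to 7.85). TRIM28, the ligase bound by MAGEA3, MAGEA6 and MAGEC2, was lower with DAC+SB, with log2 ratios of -0.59 in H1299 and -0.80 in HCT116. PRKAA1, the AMPK subunit that MAGEA3 and MAGEA6 with TRIM28 are known to send for degradation, was lower at the RNA level at -0.62 and -0.81. DNMT1 and UHRF1, which maintain DNA methylation, had -1.08 and -1.28 in H1299 and -0.62 and -2.13 in HCT116. PJA1, a ubiquitin ligase known to bind MAGED1, had 0.19 in H1299 and 1.03 in HCT116. The medians over the genes of this list with enough counts were -0.47 and -0.74.

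Among 15495 single-gene names with at least 100 counts in a library, the 5 whose levels over the 4 libraries were most like the summed MAGE members were RP11-425I13.3, CHMP1B, ZEB1-AS1, TRPM6 and EIF3G. Likeness was the distance between log2 levels after each gene's own mean was removed, and was 0.0165 for the nearest and 0.143 for the fifth. CHMP1B, an ESCRT-III subunit, had 37.2, 51.6, 13.9 and 29.7 CPM in control H1299, treated H1299, control HCT116 and treated HCT116. EIF3G, a translation initiation factor subunit, had 187, 253, 76.6 and 145 CPM. Over only 4 libraries, close matches among so many names are easily found, so likeness is a description. The sum also mixes unlike members: in the same order MAGEA4 had 139, 155, 0 and 16.0 CPM, and MAGEB2 had 0, 70.4, 64.1 and 70.6 CPM.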

How the data were processed

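The authors deposited 2 tables of counts, 1 of genes and 1 of transposable elements, each with a feature, a cell barcode ending in its library, and a whole-number count. Per the submitters' processing notes the tools included STAR and CASAVA and the builds GRCh38 and hg38. Whether the counts are of UMIs, and the strand setting, cell filter and treatment of doublets, were not given in the sources used here. No doublet caller was run.

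Counts were summed per gene name over unnumbered and numbered features and divided by gene plus TE counts. Joined names were kept apart. Ratios carry exact conditional binomial 95% intervals, levels Poisson intervals and shares Clopper-Pearson intervals. Intervals of the difference between the log2 ratios of the lines are normal approximations. A gene at 0 was set to 3 counts for a bound. Thinning used a hypergeometric draw. The script was tested on simulated data. All 10 members were named, other genes from lists where they had at least 100 counts in a library, and 5 by likeness with 0.1 CPM added. MAGEB4, NDN, MAGEL2 and markers with fewer counts (such as CDX1) are named outside this rule, after their values were seen. A further gene of the partner list was left out and is not reported here. The members and all lists were chosen with earlier results of these data known. Positions came from GENCODE 29 and promoters from RefSeq (GRCh38.p14). Alternatives covered numbered features, joined names, denominators, cells, thinning and thresholds. Python 3.11.15, numpy 2.4.6, pandas 2.3.3, scipy 1.17.1, Biopython 1.88 and matplotlib 3.10.9 were used.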

Additional observations from a re-analysis of the deposited data

Results flagged for a closer look

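MAGEA1 was lower with DAC+SB in H1299 and higher in HCT116. Its log2 ratio in H1299 minus that in HCT116 was -8.05 (-9.69 to -6.41), and this difference was not tested because each group was 1 library. The interval is a normal approximation, which is rough here because control HCT116 had 3 counts of MAGEA1. MAGEA10 also had ratios of opposite sign in the lines, with a difference of -5.28 in which the HCT116 ratio is a bound set by 0 counts with DMSO; this difference was not tested either.

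Names that join a MAGE gene with another gene were outside the summed members and held counts above those of the control library or above 3 counts. CSAG4 joined with MAGEA12 had 1983 counts in treated H1299 (31.8 CPM, against 23.1 CPM with DMSO) and 252 counts in treated HCT116 (6.47 CPM, against 4.73 CPM). MAGEA10 joined with RP11-1007I13.4 had 113 counts in treated HCT116 and 0 with DMSO.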

How the results depend on the processing

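The log2 ratio of the summed members was 0.45 in H1299. It was 0.33 with numbered features used only where both libraries of the line list them, 0.52 per gene counts without mitochondrial and ribosomal protein genes, 0.49 as a mean over cells, 0.71 without MAGEA4 and 0.14 without MAGEB2. In HCT116 it was 1.02, and 0.85 with the numbered features so limited, 1.16 without mitochondrial and ribosomal protein genes, 0.90 without MAGEA4 and 1.93 without MAGEB2. The sums without MAGEA4 or MAGEB2 were chosen after seeing the data. Members at least 4-fold higher in H1299 numbered 4 with a minimum of 1 count and 2 in the other settings. In HCT116 they numbered 6, and 7 with joined names, at 2-fold or with a minimum of 1 count, and 5 with MAGEA3 and MAGEA6 summed. The shares of all genes at 2-fold or with a minimum of 1 count were not computed, so the numbers in these settings have no yardstick.

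Shares of cells with a count of any member, at 56.7%, 66.9%, 27.0% and 43.5% in control H1299, treated H1299, control HCT116 and treated HCT116, were 95%, 96.7%, 70.4% and 67.9% without thinning. At 1650 counts per cell they were 34.5%, 44.1%, 13.9% and 26.0%. With joined names the H1299 shares were 59.8% and 70.4%.

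In the 6 alternatives for single members, 0 of 20 treatment ratios changed side of 4-fold. A sign changed in 3 ratios without mitochondrial and ribosomal protein genes (MAGEA3 and MAGEA6 in H1299, MAGEA12 in HCT116) and in 1 with joined names (MAGEA12 in HCT116). No paired analysis was possible because each group was 1 library, and for the same reason leaving out a replicate was not run. Depth limits genes at 0 to a level of up to 3 counts.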

Other observations

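The genes here were chosen after their values were seen. NDN (necdin), an imprinted gene outside chromosome X, had 5 and 39 counts in control and treated H1299 and 0 and 97 in HCT116. MAGEL2, its imprinted neighbour, had 1 and 8 counts in H1299 and 0 and 10 in HCT116. Both stayed under 100 counts in every library. ETS1, a member of the ETS family, had 3269 and 1700 counts (50.7 and 27.2 CPM) in H1299 and 0 and 57 (0 and 1.46 CPM) in HCT116. ETS2 had 260 and 420 counts (4.03 and 6.73 CPM) in H1299 and 605 and 856 (9.66 and 22.0 CPM) in HCT116.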
